A study of Mus musculus with 30 samples.

Results

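The inhibitors of cyclin-dependent kinases (CDKs) and the retinoblastoma family were examined as 10 genes of the 55487 in the deposited count table. They were taken by name, as the 7 inhibitor genes Cdkn1a, Cdkn1b, Cdkn1c, Cdkn2a, Cdkn2b, Cdkn2c and Cdkn2d and the 3 pocket protein genes Rb1, Rbl1 and Rbl2. Cdkn2a and Cdkn2b had 0 counts in all 30 libraries. The other 8 had counts in every library and passed the filter on low counts, within a total of 15907 genes.

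These genes form the brake on the G1 phase of the cell cycle. CDK4 and CDK6 with D-type cyclins, and CDK2 with cyclin E, phosphorylate the pocket proteins, which otherwise bind E2F transcription factors and keep replication genes off. The Cip/Kip inhibitors (p21, p27 and p57, from Cdkn1a, Cdkn1b and Cdkn1c) bind cyclin-CDK complexes broadly, whereas the INK4 inhibitors (p16, p15, p18 and p19, from Cdkn2a, Cdkn2b, Cdkn2c and Cdkn2d) bind CDK4 and CDK6. Cdkn2a also encodes p19Arf, which acts on Mdm2 and so on p53. In skeletal muscle the brake is set for good when myoblasts leave the cycle and fuse into myotubes, and p21 and p16 are also used as markers of cellular senescence.

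The cells were wild-type C2C12 mouse myotubes, a line derived from skeletal muscle myoblasts, differentiated for 4 days in medium with 2% horse serum and then held for 4 more days in 1 of 5 media. The control group stayed in 2% horse serum (2% HS), and the other 4 groups received no serum: serum deprivation alone (SD), with 100 nM metformin (MET), with 500 nM leucine (LEU), or with both (MET+LEU). Each group had 6 libraries, all of this single cell line, and the labels do not say whether they came from separate cultures, so the p-values measure the spread between these samples, which may be technical. Libraries held 12784960 to 19604103 counts over all genes. MET+LEU replicate 6 stood apart, with 5.85% of its counts on nuclear and 7.64% on mitochondrial ribosomal RNA genes against at most 1.96% and 0.76% in any other library, and results for MET+LEU are therefore also given without it.

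The label of myotubes was checked against markers. All 12 myotube markers were tested, with Myog, Mymk, Acta1 and Ttn at medians of 1046, 648, 3287 and 25861 CPM (counts scaled to a common library size). All 8 markers of undifferentiated or cycling myoblasts were also detected, with Pax7 at a median of 153 CPM and Mki67, which marks cycling cells, at 73.8 CPM. Of the 5 fibroblast-like markers, Col3a1, Col1a1 and Pdgfra were detected at medians of 4597, 674 and 16.6 CPM, Thy1 had 21 counts over all 30 libraries and Tcf21 had 0. Among markers of other cells, Adgre1 (macrophage) had 0 counts. Ptprc (macrophage), Adipoq and Cidec (adipocyte) and Ibsp (osteoblast) had 1 to 8 counts over all 30 libraries. Plin1 and Fabp4 (adipocyte) had 14 and 22, Bglap, Sp7 and Alpl (osteoblast) 48, 51 and 72, and Csf1r (macrophage) 167. In addition, 1 marker each of macrophages (Cd68, median 2.76 CPM), adipocytes (Pparg, 6.57 CPM) and osteoblasts (Runx2, 119 CPM) passed the filter. Values below are CPM scaled by the trimmed mean of M-values (TMM), with the mean ± SD of 6 libraries. Differences are log2 fold changes ± standard error (SE) from a single edgeR quasi-likelihood model of all 30 libraries. The SE was derived as the absolute log2 fold change divided by the square root of the test's F statistic. A gene was called at an adjusted p under 0.05, with Benjamini-Hochberg adjustment over all 15907 genes. In bulk RNA, fewer cells of a type and less RNA per cell cannot be told apart.

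Cdkn1a dominated the family. Levels of different genes were compared per kilobase (kb) of annotated exon, and Cdkn1a averaged 611 ± 70.4 CPM per kb over the 30 libraries. That was 28.7 times Rb1, the next gene at 21.3 ± 2.38 CPM per kb. Rbl2 (17.8 ± 1.13) and Cdkn1b (17 ± 1.42) followed on the same scale. Rb1 lay above Rbl2 in all 30 libraries, though their ranges overlapped. The ranges of Rbl2 and Cdkn1b also overlapped, and Rbl2 lay above Cdkn1b in 23 of 30 libraries, so their order was not separated beyond the spread. Cdkn1c (8.48 ± 0.802), Cdkn2d (7.02 ± 0.906) and Cdkn2c (5.19 ± 0.745 CPM per kb) were lower, and the ranges of neighbours in this order overlapped. Within single libraries, Cdkn1c lay above Cdkn2d in 26 of 30 and Cdkn2d above Cdkn2c in all 30. Rbl1 was lowest at 1.96 ± 0.295 CPM per kb, below Cdkn2c in all 30 libraries. This order depends on the annotated exon length used for each gene. Without that division, mean Rbl2 lay above Rb1 in SD (128 and 117 CPM), though not in 2% HS (136 and 152 CPM). Cdkn2c likewise averaged above Cdkn2d in SD (15.4 and 11.6 CPM). Of the summed inhibitor level per kb, Cdkn1a made up 92.3% to 95.7% in single libraries. Of the summed pocket protein level per kb, Rb1 made up a mean of 56% in 2% HS and 50.5% in SD, and Rbl1 4.21% and 5.71%. Of the members not located below, Cdkn1c lies on chromosome 7 (143458339 to 143461050, GRCm38), Cdkn2d on chromosome 9 (21288410 to 21291407) and Rbl1 on chromosome 2 (157145893 to 157204534), all on the minus strand.

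**Figure D1:**
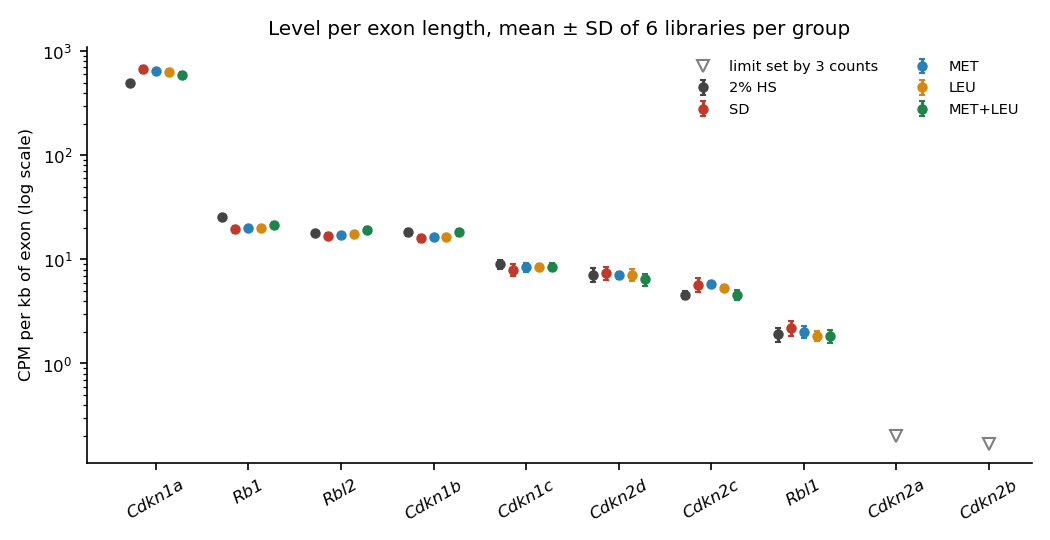
Level of each member in CPM per kb of exon on a log axis, as the mean and SD of 6 libraries for each of the 5 groups. Cdkn1a lies above all others at 611 CPM per kb on average, and open triangles mark the level that 3 counts would give for Cdkn2a and Cdkn2b in the smallest library (0.2 and 0.169 CPM per kb).

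The depth behind these genes differed. Cdkn1a had 22385 to 49318 counts per library, Rbl2 1682 to 2622, Rb1 1648 to 2936 and Cdkn1b 1000 to 1570. The remaining detected members were shallow: Cdkn1c had 227 to 331 counts, Cdkn2c 135 to 294, Cdkn2d 109 to 238 and Rbl1 130 to 234. The mean coefficient of variation within groups was 4.26% for Rbl2, 4.96% for Rb1 and 5.12% for Cdkn1a, but 12.8% for Cdkn2d and 13.9% for Rbl1. Counting error alone gives 7.63% and 7.43% at the mean counts of Cdkn2d and Rbl1, so their spread between libraries was wider than counting error.

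Cdkn2a (ENSMUSG00000044303, chromosome 4, 89274471 to 89294653, GRCm38) and Cdkn2b (ENSMUSG00000073802, chromosome 4, 89306299 to 89311039) lie side by side on the minus strand. With 0 counts in each library, the limit set by 3 counts was 0.235 CPM in the smallest library and 0.153 CPM in the largest, counting error only. No fold change was formed for either gene in any comparison. Their nearest protein-coding neighbour with counts was Mtap, which encodes a methionine salvage enzyme, 93.4 kb away. Mtap had 345 to 627 counts in each of the 30 libraries. Beyond Mtap on the same side, Ifne had 36 counts over all libraries, Ifna5 had 1, and Ifna1 and Ifna4 had 0. On the other side Dmrta1, Zfp352, Elavl2 and Izumo3 had 0 counts in all libraries. Cdkn2a opened a run of 15 annotated genes in a row at 0, of which 4 were protein-coding (Cdkn2a, Cdkn2b, Dmrta1 and Zfp352). A count of 0 was not rare in the table: 40.8% of all 55487 genes and 20.4% of the 21974 protein-coding genes had no count in any library. Cdkn2c, also on chromosome 4 but further along at 109660876 to 109667189, was detected in every library.

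**Figure D2:**
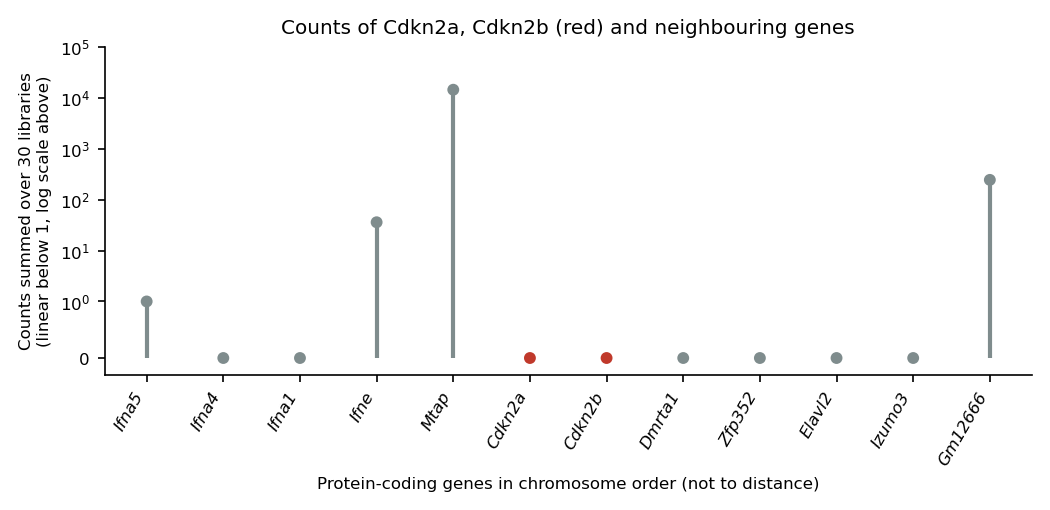
Counts summed over 30 libraries for Cdkn2a and Cdkn2b (red) and the 5 protein-coding genes on each side (grey), in chromosome order, on an axis that is linear below 1 and logarithmic above. Mtap stands at 14471 counts, while Cdkn2a, Cdkn2b and the next 4 genes are at 0.

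Promoter stretches are shown for 5 members because they differ in the letters that E2F, Sp1-type and forkhead factors are known to read, and because they include members that changed (Cdkn1a, Cdkn1b, Rbl2), an undetected member (Cdkn2a) and Rbl1 as the counterpart of Rbl2. RefSeq promoters of 300 bases (250 before to 50 after a start, GRCm38.p6) matched 8 of the 10 members. Rb1 and Cdkn1c had no window and were not searched. Both strands of each window were searched for 8 motifs. E2F was spelled TTTNNCGC, where N is any base. The GC box read by Sp1-type factors was spelled GGGCGG. The CCAAT box, spelled by its own name, and the forkhead motif, spelled TGTTTA, were the next pair searched. The CHR element bound by the DREAM complex was spelled TTTGAA. For the E-boxes of myogenic factors the first spelling was CAGCTG. The other E-box spelling in the search was CACCTG. The TATA box was spelled TATAAA in the search. No match shown here overlaps another. Each line gives 120 bases upstream of annotated exons, 5′ to 3′ on the gene's strand, with matches in capitals. The Cdkn1a line precedes its second start, which lies inside the annotated gene, and the Cdkn2a line precedes its upstream start.
Cdkn1a, chr17:29093649-29093768, plus strand: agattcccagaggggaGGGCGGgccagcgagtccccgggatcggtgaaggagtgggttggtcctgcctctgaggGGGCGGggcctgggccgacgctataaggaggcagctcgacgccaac
Cdkn1b, chr6:134920281-134920400, plus strand: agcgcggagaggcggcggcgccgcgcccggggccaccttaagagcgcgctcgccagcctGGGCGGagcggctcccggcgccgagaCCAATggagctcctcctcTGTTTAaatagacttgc
Cdkn2a, chr4:89294654-89294773, minus strand: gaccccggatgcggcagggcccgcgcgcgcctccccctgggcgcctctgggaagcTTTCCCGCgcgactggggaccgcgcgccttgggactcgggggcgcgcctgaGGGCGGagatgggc
Rbl1, chr2:157204535-157204654, minus strand: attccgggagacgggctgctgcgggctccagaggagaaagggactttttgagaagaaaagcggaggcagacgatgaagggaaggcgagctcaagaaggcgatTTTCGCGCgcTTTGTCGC
Rbl2, chr8:91069937-91070056, plus strand: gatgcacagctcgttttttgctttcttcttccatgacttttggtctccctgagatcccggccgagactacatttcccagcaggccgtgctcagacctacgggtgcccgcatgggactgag
Rbl1 held 2 E2F matches, beginning 18 and 8 bases before the start, and Rbl2 held none in its window. E2F letters were present in 5.17% of 32851 RefSeq promoter windows of this length. Among the 8 members with a window, E2F letters were otherwise found in those of Cdkn2a. These began 99 bases before the upstream start and 244 bases before the downstream start. Cdkn1a held 2 GC boxes before its second start, and GC boxes were present in 35.7% of windows. A CACCTG E-box match lay further up, beginning 187 bases before that start. The window of the first Cdkn1a start, not shown, held no GC box and a CAGCTG E-box beginning 37 bases after the start. Cdkn1b held a CCAAT box and a forkhead match, which occurred in 37.4% and 13.4% of windows. A match is a run of letters in a window, not a measured binding site.

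The first comparison asked what removing serum did to the brake. In SD vs. 2% HS, Cdkn1a and Cdkn2c rose, and Rb1 and Cdkn1b fell, 2 members in each direction of the 8 tested. Over all genes, 13.9% were called higher and 13.9% lower. The other 4 members (Cdkn1c, Cdkn2d, Rbl1 and Rbl2) did not pass the threshold.

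Cdkn1a (ENSMUSG00000023067, chromosome 17, 29090976 to 29100727), which encodes the p53- and MyoD-responsive inhibitor p21, was at 1643, 1773 and 1857 CPM in 2% HS and at 2211, 2339 and 2696 CPM in SD (lowest, median and highest library). All 6 SD libraries lay above all 6 libraries of 2% HS. The log2 fold change was 0.44 ± 0.04 (1.36-fold, adjusted p = 5.1e-12). Cdkn2c (ENSMUSG00000028551), which encodes p18, an INK4 inhibitor that accumulates as myoblasts differentiate, was at 10.8, 12.4 and 13.8 CPM in 2% HS and at 12.8, 15.5 and 19.2 CPM in SD. Of the 6 SD libraries, 4 lay above every 2% HS library and the groups overlapped. The log2 fold change of Cdkn2c was 0.32 ± 0.09 (adjusted p = 0.00323).

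Rb1 (ENSMUSG00000022105, chromosome 14, 73183673 to 73325822), the founding pocket protein gene, was at 146, 150 and 162 CPM in 2% HS and at 104, 118 and 129 CPM in SD. The ranges did not overlap, and Rb1 fell by 0.38 on the log2 scale (SE 0.04, adjusted p = 5.0e-10), or by 23%. Cdkn1b (ENSMUSG00000003031, chromosome 6, 134920401 to 134925513), which encodes p27, an inhibitor that builds up in resting cells, was at 78.9, 80.7 and 94.1 CPM in 2% HS and at 66.1, 72.5 and 78.7 CPM in SD. Every SD library lay below every 2% HS library, with the nearest libraries at 78.7 and 78.9 CPM. Cdkn1b fell by 0.20 on the log2 scale (SE 0.05, adjusted p = 0.00184). Without 2% HS replicate 2, its highest library, the log2 fold change of Cdkn1b was -0.16 (adjusted p = 0.011). Groups did not overlap for 3 of the 8 members (Cdkn1a, Cdkn1b and Rb1), against 13.6% of all genes tested.

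The members that missed the threshold were Rbl1, with a log2 fold change of 0.21 ± 0.11 (adjusted p = 0.137), Cdkn1c at -0.18 ± 0.08 (0.0779), Rbl2 at -0.09 ± 0.04 (0.0887) and Cdkn2d at 0.04 ± 0.10 (0.795). Cdkn1c passed without 2% HS replicate 4 or SD replicate 5, and Rbl2 without SD replicate 4 or SD replicate 5, with adjusted p-values of 0.036, 0.0154, 0.025 and 0.0263. An interval of 2 SE on either side ran from -0.16 to 0.25 for Cdkn2d. Fibroblast-like markers moved with this comparison, where 13.9% of all genes were called in each direction. The 3 of 5 that were tested (Col1a1, Col3a1 and Pdgfra) were all called higher. Their list summed to 2968 to 3281 CPM in 2% HS and 5167 to 5497 CPM in SD, with Tcf21 at 0. Of the 12 myotube markers, 2 were called higher (Des and Mylpf) and 4 lower (Ckm, Ttn, Actn2 and Myh1), and their list summed to 43000 to 45719 CPM in 2% HS and 35532 to 38161 CPM in SD, with none at 0. The part of either list in the members' changes was not tested.

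**Figure D3:**
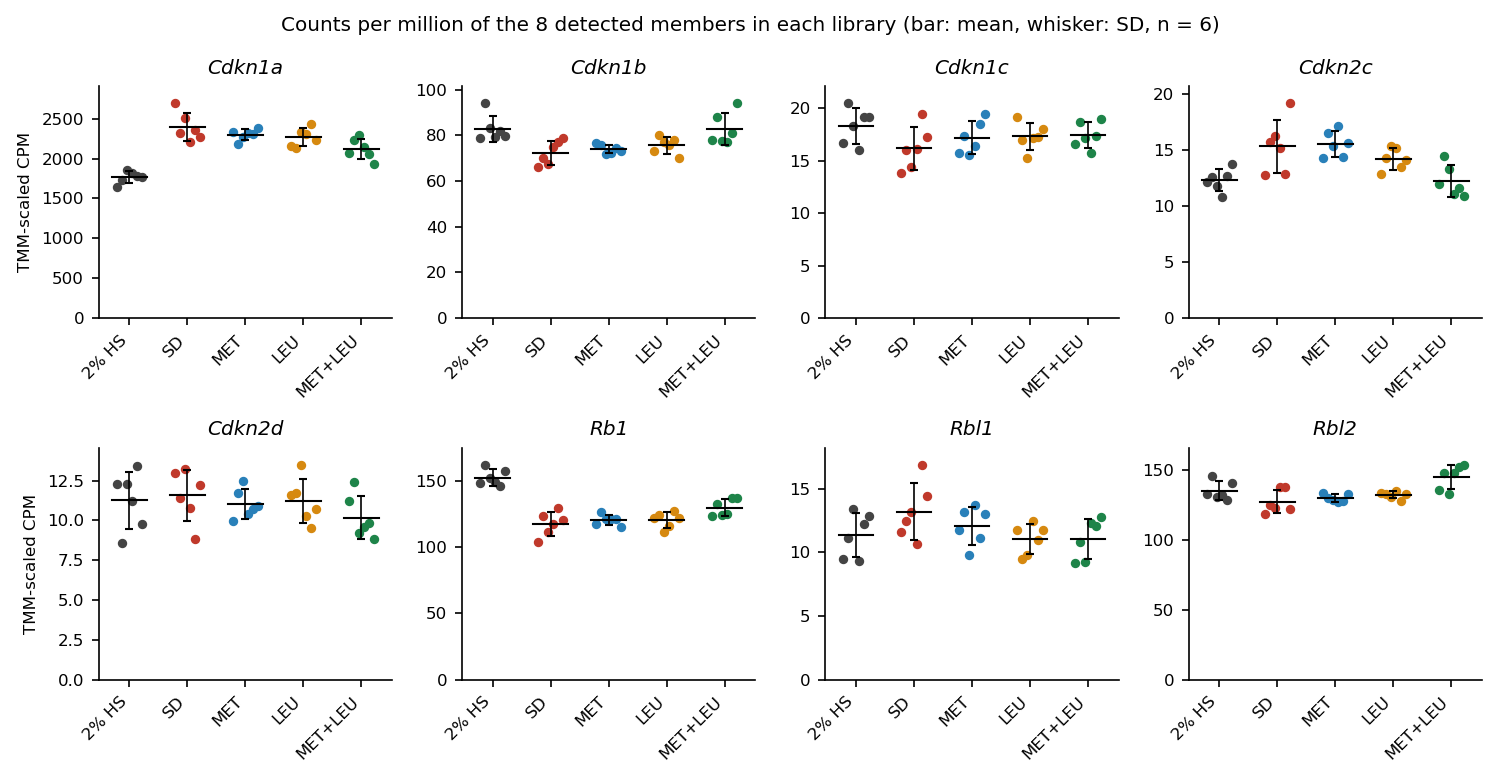
TMM-scaled CPM of the 8 detected members in each of 30 libraries, by group (points: libraries, horizontal bar: mean, whisker: SD, n = 6; axes start at 0). Every library of the 4 serum-free groups lies above 2% HS for Cdkn1a (highest 2% HS library 1857 CPM) and below it for Rb1 (lowest 146 CPM), and the spread between libraries is wide for Cdkn2d and Rbl1.

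Each compound was then compared alone with SD. No member was called for MET vs. SD or LEU vs. SD by edgeR, where 0.157% and 0.553% of all genes were called, and the interaction of MET and LEU called no member and 0.0503% of genes. At an unadjusted p under 0.05, 0 members were found for MET, 1 for LEU (Rbl1) and 0 for the interaction, and DESeq2 and limma-voom also called 0 members at the adjusted threshold in each of these comparisons. Cdkn1a was at 2302 ± 65.5 CPM in MET and 2269 ± 114 CPM in LEU against 2394 ± 179 CPM in SD. Rb1 was at 120 ± 3.74 and 120 ± 5.64 CPM against 117 ± 8.98 CPM. For both genes these differences were smaller than the SD of the SD libraries. Rbl1, which encodes p107, the pocket protein most tied to cycling cells and itself an E2F target, was at 11.1 ± 1.2 CPM in LEU and 13.2 ± 2.22 CPM in SD. All 6 LEU libraries lay below the SD mean, with a log2 fold change of -0.25 ± 0.11, but the adjusted p was 0.387.

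MET+LEU vs. SD asked what the combination did during serum deprivation. Cdkn1b, Rb1 and Rbl2 rose and Cdkn1a and Cdkn2c fell, so 3 of 8 members were called higher and 2 lower, against 10.6% and 7.80% of all genes. For Cdkn1a, Cdkn1b, Cdkn2c and Rb1 the sign was opposite to that in SD vs. 2% HS. The 2 comparisons share the SD libraries, so an SD library that lies high or low moves both in opposite directions, and the sign change is not independent evidence. For no member did the groups cease to overlap (5.34% of all genes).

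Rbl2 (ENSMUSG00000031666, chromosome 8, 91070057 to 91123844), which encodes p130, the pocket protein of resting cells and of the DREAM complex, was at 119, 124 and 138 CPM in SD and at 133, 148 and 154 CPM in MET+LEU. Of the MET+LEU libraries, 4 of 6 lay above every SD library and all 6 above the SD mean. The log2 fold change of Rbl2 was 0.19 ± 0.04 (1.14-fold, adjusted p = 6.0e-04). Cdkn1b was at 76.9, 79.5 and 94 CPM in MET+LEU, with 3 libraries above every SD library. Its log2 fold change was 0.19 ± 0.05 (adjusted p = 0.0043). The highest MET+LEU library for Cdkn1b and Rbl2 was replicate 6, and both stayed called without it, at 0.15 ± 0.05 (adjusted p = 0.0231) and 0.16 ± 0.04 (0.00204).

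Cdkn1a was at 1939, 2107 and 2293 CPM in MET+LEU, and all 6 libraries lay below the SD mean. It fell by 0.17 on the log2 scale (SE 0.04, adjusted p = 0.00236), or by 11.3%. Cdkn2c was at 10.9, 11.8 and 14.5 CPM, with 4 of 6 libraries below every SD library, and fell by 0.32 (SE 0.09, adjusted p = 0.00575). Rb1 was at 123, 129 and 137 CPM, with 3 of 6 libraries above every SD library. Its log2 fold change of 0.15 ± 0.04 (adjusted p = 0.0102) was the least stable of the 5: without SD replicate 1, which held the lowest Rb1 level in SD, it was 0.11 ± 0.04 with an adjusted p of 0.0687. The Rb1 call was also lost with limma-voom and in a model of the SD and MET+LEU libraries alone, the Cdkn1b call with limma-voom (adjusted p = 0.0745) and the Cdkn2c call in the model of these groups alone (0.0528). Without MET+LEU replicate 6, Cdkn1a, Cdkn2c and Rb1 stayed called, at -0.15, -0.30 and 0.13 on the log2 scale.

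With the combination, the 3 members that missed the threshold were Rbl1 (-0.25 ± 0.11, adjusted p = 0.0939), Cdkn2d (-0.19 ± 0.10, 0.209) and Cdkn1c (0.11 ± 0.08, 0.341). All 6 MET+LEU libraries lay below the SD mean for Rbl1, and it was called without SD replicate 4 (adjusted p = 0.0377). In this comparison 10.6% of all genes were called higher and 7.80% lower. Of the 8 markers of undifferentiated or cycling myoblasts, 5 were called lower (Cdk1, Top2a, Ccna2, Mki67 and Ccnb1) and 0 higher. The list summed to 378 to 424 CPM in SD and 323 to 351 CPM in MET+LEU, with none at 0. Of the 12 myotube markers, 4 were called higher (Myh3, Myh8, Myh1 and Tnnt3) and 0 lower, with and without MET+LEU replicate 6 alike in number, and their list summed to 35532 to 38161 CPM in SD and 35654 to 44406 CPM in MET+LEU. The part of either list in the members' changes was not tested.

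**Figure D4:**
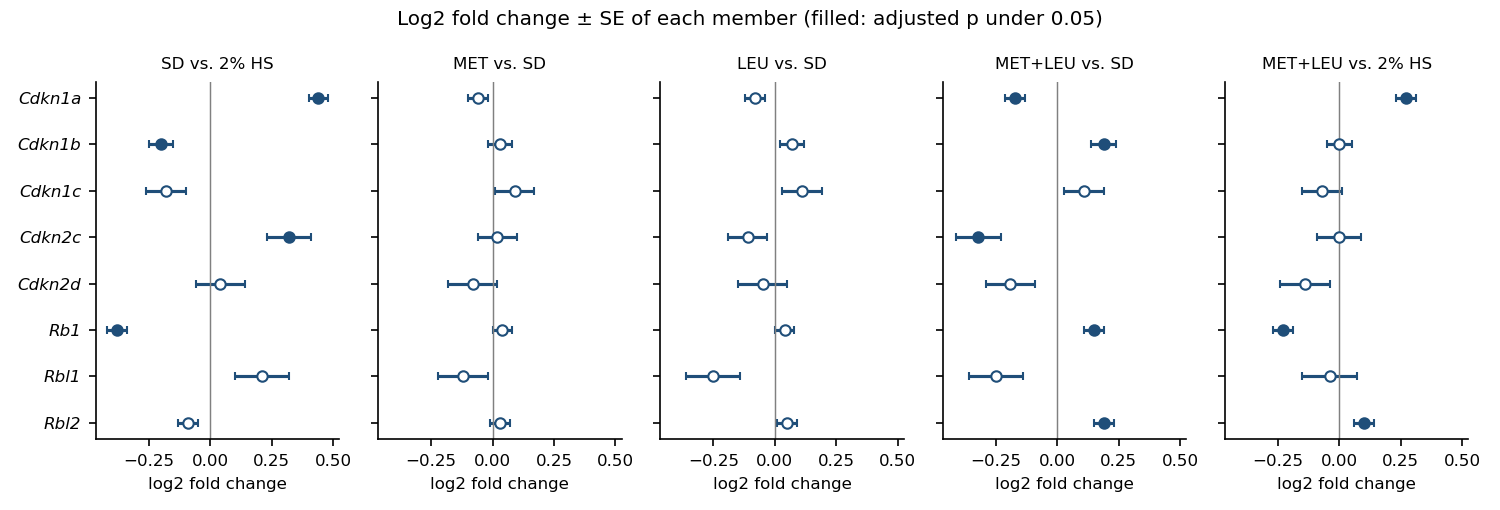
Log2 fold change (points) ± SE (bars) of the 8 detected members in 5 comparisons, from the edgeR model of all 30 libraries, with filled points at an adjusted p under 0.05. MET and LEU alone have no filled point, MET+LEU vs. SD has 5, and in MET+LEU vs. 2% HS Cdkn1a (0.27) and Rb1 (-0.23) stay away from 0.

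MET+LEU vs. 2% HS showed which members still differed from serum-fed myotubes. Cdkn1a and Rbl2 were called higher and Rb1 lower, 2 and 1 of the 8 members, against 22.1% and 20.3% of all genes. All 6 MET+LEU libraries lay above all 2% HS libraries for Cdkn1a and below all of them for Rb1. Cdkn1a averaged 2123 ± 129 CPM in MET+LEU against 1766 ± 73.9 CPM with serum, or 0.27 ± 0.04 higher on the log2 scale (adjusted p = 9.2e-07). Rb1 averaged 130 ± 6.78 and 152 ± 6.26 CPM, a difference of -0.23 ± 0.04 on that scale (adjusted p = 1.5e-05). The call of Rbl2 (0.10 ± 0.04, adjusted p = 0.0415) held in 5 of 30 fits that left out a library, and without MET+LEU replicate 6 its adjusted p was 0.135. The same call was also lost with DESeq2 size factors, upper-quartile scaling, limma-voom, both other count filters and a model of these groups alone. It held with the DESeq2 Wald test. Cdkn1b was at 82.6 ± 6.97 and 82.8 ± 5.75 CPM, with an interval of 2 SE from -0.10 to 0.09 on the log2 scale. Cdkn2c was at 12.2 ± 1.4 and 12.3 ± 1.01 CPM, with an interval from -0.18 to 0.17.

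The combination was also set against each compound. In MET+LEU vs. MET, Cdkn1b (0.16 ± 0.05, adjusted p = 0.0356) and Rbl2 (0.16 ± 0.04, 0.00812) were called higher and Cdkn2c (-0.34 ± 0.09, 0.00769) lower, against 5.54% and 3.15% of genes. All 6 MET+LEU libraries lay above all MET libraries for Cdkn1b, the single member without overlap (3.77% of genes), at 76.9 CPM or more against 76.5 CPM or less. The call of Cdkn1b held in 10 of 30 fits that left out a library, and without MET+LEU replicate 6 its log2 fold change was 0.11 (adjusted p = 0.171). Calls for Rbl2 and Cdkn2c held in all 30 such fits. Cdkn1a missed the threshold (-0.12 ± 0.04, adjusted p = 0.0685) but passed it in 15 of the 30. Against LEU, Rbl2 alone was called higher (0.13 ± 0.04, adjusted p = 0.0337) and no member lower, against 4.61% and 1.67% of genes. That call held in 8 of 30 fits and was lost without MET+LEU replicate 6 (adjusted p = 0.123). Since the interaction called no member, the effect of the combination was not shown to differ from the sum of the single effects. The nearest were Cdkn2c (-0.23 ± 0.12, unadjusted p = 0.056 and adjusted p = 0.582) and Rbl2 (0.10 ± 0.06, unadjusted p = 0.0674 and adjusted p = 0.602) in the edgeR model.

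The genes that act with the brake were read from 6 lists. Of 24 replication genes known as E2F targets, 12 were called higher and 0 lower in SD vs. 2% HS (13.9% of all genes in each direction), with a median log2 fold change of 0.21 against 0.00 over all genes. Cdc6, a replication licensing factor, averaged 3.46 ± 0.406 CPM in SD against 2.04 ± 0.424 CPM with serum (0.75 ± 0.17, adjusted p = 5.2e-04). Gins2, a helicase subunit, followed (0.74 ± 0.22, 0.00848). With MET+LEU vs. SD, 15 of the 24 were called lower and 0 higher (median -0.28 against -0.01), against 7.80% and 10.6% of all genes. Both comparisons use the same SD libraries, so the change of sign is not independent evidence. The list shares Mki67, Pcna and Top2a with the markers of undifferentiated or cycling myoblasts. Mcm5, a subunit of the replicative helicase, was at 7.39 ± 1.4 CPM in MET+LEU and 12.5 ± 1.41 CPM in SD (-0.76 ± 0.11, adjusted p = 2.0e-06). Gins2 was at -0.74 ± 0.22 (0.014) and the topoisomerase gene Top2a at -0.64 ± 0.08 (6.3e-07). Without MET+LEU replicate 6 the count was again 15 lower and 0 higher, with a median of -0.31, while the share called over all genes was 7.58% higher and 5.96% lower. With LEU alone 4 of the 24 were lower (Cdc6, Rrm2, Top2a and Mcm3) and with MET alone none. Over all genes, 0.553% were called with LEU and 0.157% with MET, counting both directions.

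The p53 pathway list, whose transcription factor drives Cdkn1a, had 10 of 18 genes higher and 2 lower in SD vs. 2% HS, with a median of 0.27. The share over all genes was 13.9% in each direction. The RNA-binding protein gene Zmat3 (0.62 ± 0.05, adjusted p = 1.2e-15), Trp53inp1 (0.59 ± 0.05, 1.6e-13) and the nuclease gene Aen (0.58 ± 0.05, 1.7e-14) were largest, and their groups did not overlap. The same list had 2 higher and 2 lower in MET+LEU vs. SD (median -0.03), against 10.6% and 7.80% of all genes. Gadd45a was at 0.30 ± 0.06 (2.5e-04), Sesn2 at -0.29 ± 0.08 (0.00505) and Zmat3 at -0.22 ± 0.04 (3.4e-04). Without MET+LEU replicate 6, 1 was higher and 2 lower.

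Among 13 tested G1 and S cyclins and kinases, 3 were higher and 2 lower in SD vs. 2% HS, against 13.9% of all genes in each direction. Ccnd1 (cyclin D1) averaged 20.1 ± 3.16 CPM in SD against 8.84 ± 0.886 CPM with serum (1.19 ± 0.09, adjusted p = 2.0e-14). Ccnd3 (cyclin D3), the D-type cyclin of differentiating muscle, was at 213 ± 24.6 and 295 ± 11.1 CPM (-0.46 ± 0.07, 1.7e-06), and Cdk6 was at 0.33 ± 0.05 (3.8e-06). With MET+LEU vs. SD, 2 were higher and 3 lower, against 10.6% and 7.80% of all genes. Ccna2 (cyclin A2), also on the cycling myoblast marker list, was at -0.67 ± 0.08 (3.7e-08) and Ccne1 (cyclin E1) at -0.46 ± 0.16 (0.0419). Mnat1, part of the CDK-activating kinase, was at 0.29 ± 0.06 (3.9e-04). Without MET+LEU replicate 6, 1 was higher and 3 lower. Of 10 E2F and DP genes, Tfdp1 was called higher in SD vs. 2% HS (0.11 ± 0.04, 0.0267). The repressor E2f7 (-0.65 ± 0.12, 1.7e-04) and E2f2 (-0.20 ± 0.07, 0.0415) were called lower in MET+LEU vs. SD, and 1 gene was called without MET+LEU replicate 6. Of 8 genes of the MuvB and DREAM complexes, 0 were called in SD vs. 2% HS. Foxm1 (-0.57 ± 0.09, 1.3e-05) and Mybl1 (-0.41 ± 0.14, 0.0407) were called lower in MET+LEU vs. SD.

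Of 21 known regulators of the inhibitors, 4 were higher and 2 lower in SD vs. 2% HS, against 13.9% of all genes in each direction. Id1, an antagonist of myogenic factors, was at 0.33 ± 0.06 (adjusted p = 1.5e-05), Myod1, which induces Cdkn1a in myoblasts, at -0.28 ± 0.06 (4.1e-04), and Cks1b, a cofactor in p27 breakdown, at 0.28 ± 0.10 (0.0223). Cks1b was called lower in MET+LEU vs. SD (-0.30 ± 0.10, 0.0235), as were Cdc20 (-0.65 ± 0.12, 1.6e-04) and Dtl (-0.39 ± 0.11, 0.00689), an adaptor of the ligase that degrades p21. In that comparison 3 were higher (Mef2c, Id2 and Fbxw7) and 6 lower, against 10.6% and 7.80% of all genes. The other genes called lower were Klf4, Foxo3 and Trp53, which encodes p53.

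**Figure D5:**
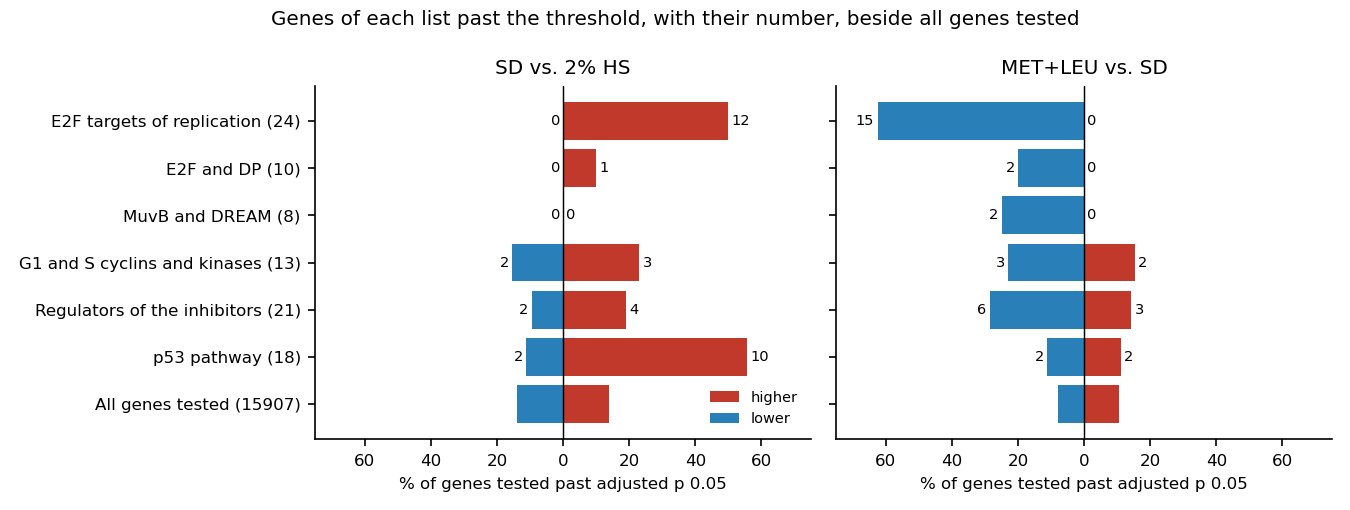
Share of tested genes called higher (red, right) or lower (blue, left) in 6 lists and over all 15907 genes, for serum removal (left panel) and for the combination added to SD (right panel), the number of genes standing beside each bar. E2F targets go from 12 of 24 higher with SD to 15 of 24 lower with MET+LEU, while the p53 pathway list has 10 of 18 higher with SD and 2 in each direction with MET+LEU. Both panels use the same SD libraries.

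How the members varied together over libraries is given as a description, since libraries share groups and depth. Over 30 libraries Cdkn1a and Rb1 had a Pearson r of -0.91 on the log2 CPM scale, and -0.50 after each group's mean was removed. Cdkn1b and Rb1 had an r of 0.72 (0.60 after removal), Cdkn1b and Rbl2 0.70 (0.53), and Cdkn2c and Rb1 -0.53 (0.00). Compared with 12682 genes by Spearman's rho over the same libraries, Cdkn1a was most like Mxd4 (0.90), Tmem119 (0.88) and Tnrc18 (0.88), and Rb1 most like Frmd4b (0.89), Osbpl8 (0.88) and Cacna2d1 (0.88). Cdkn1b was most like Sspn (0.85), Cdh6 (0.84) and Ptp4a2 (0.82), and Rbl2 most like Bclaf1 (0.83), Sptbn1 (0.82) and Aplp2 (0.82). For Cdkn2c the leading genes were Rprl3 (0.85) and the histone genes Hist1h4k (0.79) and Hist1h1b (0.76). Rbl1 was most like Smc2 (0.64), Birc5 (0.64) and Ammecr1l (0.63), and Cdkn2d most like Csnk1d (0.80), Plod3 (0.74) and Galk1 (0.73). Cdkn1c was close to Wasl (0.65) and Gsk3b (0.64).

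Exons of 4 members overlap genes on the opposite strand, and the strand setting of the counting is not given in the sources used here. The partners of Cdkn1a and Cdkn1c had 73 and 87 counts over all libraries. Rb1 overlaps Lpar6 and Rcbtb2. The deeper of these, Rcbtb2, had a log2 fold change of -0.15 when serum was removed and -0.14 when MET+LEU was added to SD. Rbl2 overlaps Aktip, which was at -0.01 and 0.13 in the same comparisons, and the shallower Gm45464.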

How the data were processed

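RNA-seq was available for 30 C2C12 libraries in 5 groups of 6. Per the labels, libraries were stranded total RNA depleted of ribosomal RNA (Ribo-Zero). The submitters' processing notes name cutadapt 1.16, STAR 2.7.6a, featureCounts 1.6.3, DESeq2 1.30.1 and GRCm38. The deposited values are raw counts per Ensembl gene, made by the authors without normalization. Of 55487 identifiers, 55227 matched GENCODE M21, which gave symbols, positions and exon lengths.

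Counts were filtered with filterByExpr (minimum count 10), scaled by TMM and fitted in edgeR 4.0.16 (R 4.3.3) by the robust quasi-likelihood test, with 1 mean per group and Benjamini-Hochberg adjustment over 15907 genes. The script was tested on simulated data. Promoter windows came from RefSeq (GRCm38.p6). The members and lists were chosen with earlier results of these data known. The rule for named genes took all members, up to 3 called genes with the largest change per list for the removal of serum and for MET+LEU added to SD, and the 3 genes most correlated with each member, except 2 that are not reported here. Marker genes came from the marker lists. The neighbours of Cdkn2a and Cdkn2b, overlapping genes and other genes listed as called were named outside this rule, after their values were seen. Alternatives were DESeq2 1.42.0 (size factors, Wald test), upper-quartile scaling, limma-voom 3.58.1, 2 other count filters, a model of the compared groups alone, a replicate block, no robust fit, an adjusted p of 0.01, and leaving out each library. The list counts without MET+LEU replicate 6 were added after seeing the data. No pair of libraries held the same counts: at least 22294 genes differed.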

Additional observations from a re-analysis of the deposited data

Results flagged for a closer look

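Of 40 sets of 6 libraries examined (8 detected members in 5 groups), 1 held a library far from the others by Dixon's gap test at the 95% level, which flags about 1 set in 20 by chance. Cdkn1b was at 94.1 CPM in 2% HS replicate 2, where the other 5 libraries of the group were at 78.9 to 83.2 CPM. The gap was 0.716 of the group's range, above Dixon's critical value for 6 libraries. The same library was also the highest of its group for Rb1 (162 CPM) and Rbl2 (146 CPM).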

How the results depend on the processing

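Of 2496 values from alternative settings for the 64 member changes, 2328 kept their direction and their side of the threshold, 87 lost the call, 25 gained it and 56 changed sign. With MET+LEU vs. SD, the number of members called went from 5 to 3 with limma-voom and to 3 in a model of these groups alone. In MET+LEU vs. LEU, the call of Rbl2 was lost, leaving 0, with an adjusted p of 0.01, DESeq2 size factors, upper-quartile scaling, limma-voom, a filter of more than 5 counts in total and a model of these groups alone, and leaving out a library gave 0 to 1. In MET+LEU vs. MET, Cdkn1a gained a call with the DESeq2 Wald test, upper-quartile scaling, limma-voom and the filter of more than 5 counts in total. Cdkn1b lost its call there with upper-quartile scaling, limma-voom, the same filter and a model of these groups alone. The cause of these changes was not tested.

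Sign changes touched uncalled values near 0. Against LEU, Cdkn1c under MET+LEU went to -0.0029 (DESeq2 size factors), -0.0144 (upper-quartile), -0.0031 (DESeq2 Wald test), -0.0323 (limma-voom), -0.0004 (more than 5 counts in total), -0.0007 (at least 10 counts in every library) and -0.0059 (these groups alone). Against 2% HS, Cdkn2c under MET+LEU went to 0.0043 (limma-voom) and 0.0023 (more than 5 counts in total). Leaving out a library gave -0.0223 to 0.1022 for Cdkn2d in SD vs. 2% HS, -0.0254 to 0.0972 for Cdkn2c in MET vs. SD, and in MET+LEU vs. 2% HS -0.0502 to 0.0246 for Cdkn1b, -0.0667 to 0.0244 for Cdkn2c and -0.1067 to 0.0058 for Rbl1. It gave -0.0373 to 0.0263 for Cdkn1c and -0.0544 to 0.0423 for Rbl1 in MET+LEU vs. LEU, and -0.0156 to 0.0489 for Cdkn1c in MET+LEU vs. MET.

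Library numbers did not pair the samples: deviations of same-numbered libraries correlated at a mean of 0.0157 (-0.0913 to 0.142). With the number as a replicate block, Cdkn1c in SD vs. 2% HS gained a call (-0.18, adjusted p = 0.0454), the members called there went from 4 to 5, and no other call changed. Cdkn2a and Cdkn2b, at 0 in every library, gave no value under any alternative. Cdkn1c, Cdkn2c, Cdkn2d and Rbl1 were the shallowest detected members, each with at most 331 counts per library, and their spread between libraries was above counting error.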
